A study of Mus musculus with 12 samples.

Results

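The RNA levels of 10 mouse genes of glutathione metabolism, the thioredoxin system and the NRF2 response were followed in cultured bone-forming cells. The genes were taken by symbol from the deposited gene table: Gclc, Gclm and Gsr for making and recycling glutathione, Gstm1 and Gsta4 for conjugating it, Txnrd1, Prdx1 and Srxn1 for the thioredoxin system, and Nqo1 and Hmox1 for handling quinones and haem. All 10 were found among the 25511 genes of the table, and all 10 were among the 13603 genes with enough fragments to be tested.

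Glutathione and thioredoxin are the main thiol reductants of the cell, and both draw their electrons from NADPH. Many of the genes that make and recycle them are switched on by the transcription factor NRF2 (gene Nfe2l2), which KEAP1 keeps scarce until oxidants or electrophiles modify KEAP1. NRF2 pairs with small MAF proteins on a DNA element called the antioxidant response element, and BACH1 represses some of the same genes, Hmox1 above all. In bone, oxidative stress is known to act against the differentiation of osteoblasts.

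The cells, labelled osteoblast-like, came from the calvariae of neonatal C57Bl/6J mice and were freed with collagenase. The mice were wild type (WT) or were labelled F2rl1 -/- (KO), a genotype without the gene of protease-activated receptor 2 (PAR2). The study asked what this receptor does in the response to factors from prostate cancer cells. After 48 h of preculture the cells spent 4 days in BRFF-HPC1 medium with 20% FCS, used either unconditioned or conditioned for 48 h by the human prostate cancer line MDA-PCa-2b. Each of the 4 groups holds 3 samples: WT unconditioned, WT conditioned, KO unconditioned and KO conditioned. Libraries are numbered 0 to 2 within a group, as in the deposited table. WT unconditioned libraries 0 and 1 differed by less than the sampling noise and were counted as 1 sample, which leaves 11 distinct libraries. Whether the 3 samples of a group came from different animals is not given in the labels, so a p-value here reflects only how much these samples vary, which may be technical.

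Libraries held 15023994 to 16956754 fragments. On the first principal component of all tested genes (46.7% of variance) the unconditioned libraries scored -37.2 to -30.8 and the conditioned libraries between -9.66 (WT library 2) and 79.1 (KO library 2). Conditioned KO libraries 1 and 2 stood apart at 64.8 and 79.1, while conditioned KO library 0 lay at -4.81, so results that rest on these libraries are given with and without library 0. F2rl1 was scarce and not lower in the libraries labelled KO, with 33 to 46 and 12 to 31 fragments in unconditioned and conditioned medium against 20 to 25 and 14 to 23 in WT. The table sums the whole gene, so these counts cannot show whether the deleted stretch is missing and do not check the genotype labels. Osteoblast markers summed to 18778 to 48059 CPM (fragments of a gene scaled to the size of its library), whereas the late markers Bglap, Dmp1 and Ibsp had at most 13, 5 and 16 fragments in a library. One WT unconditioned sample carries the KO genotype label and was kept in the group that its title gives.

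Per unit of gene length, Hmox1 was the most abundant of the 10 genes and Gsr the least. The authors' FPKM, averaged over the 11 libraries, was 709 ± 476 for Hmox1, 153 ± 46.6 for Prdx1, 102 ± 15.4 for Txnrd1 and 65.9 ± 37.6 for Gclc (SD, n = 11 for each). Gclm (45.8 ± 13.3), Srxn1 (44.0 ± 15.4), Gsta4 (39.1 ± 26.1) and Nqo1 (36.5 ± 21.1) formed the middle of the order, followed by Gstm1 (20.7 ± 8.62) and Gsr (14.8 ± 4.71). The ranges over libraries overlapped for every pair of neighbours in this order. Within each of the 11 libraries, however, Hmox1 was above Prdx1, Prdx1 above Txnrd1 and Txnrd1 above Gclc. The last of these steps was small in some libraries, at 104 against 102 FPKM in WT unconditioned library 2. The genes differed in how much they varied. Nqo1 spanned 14.7-fold between its lowest and highest library and Gsta4 10.2-fold on the FPKM scale, against 1.65-fold for Txnrd1.

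**Figure D1:**
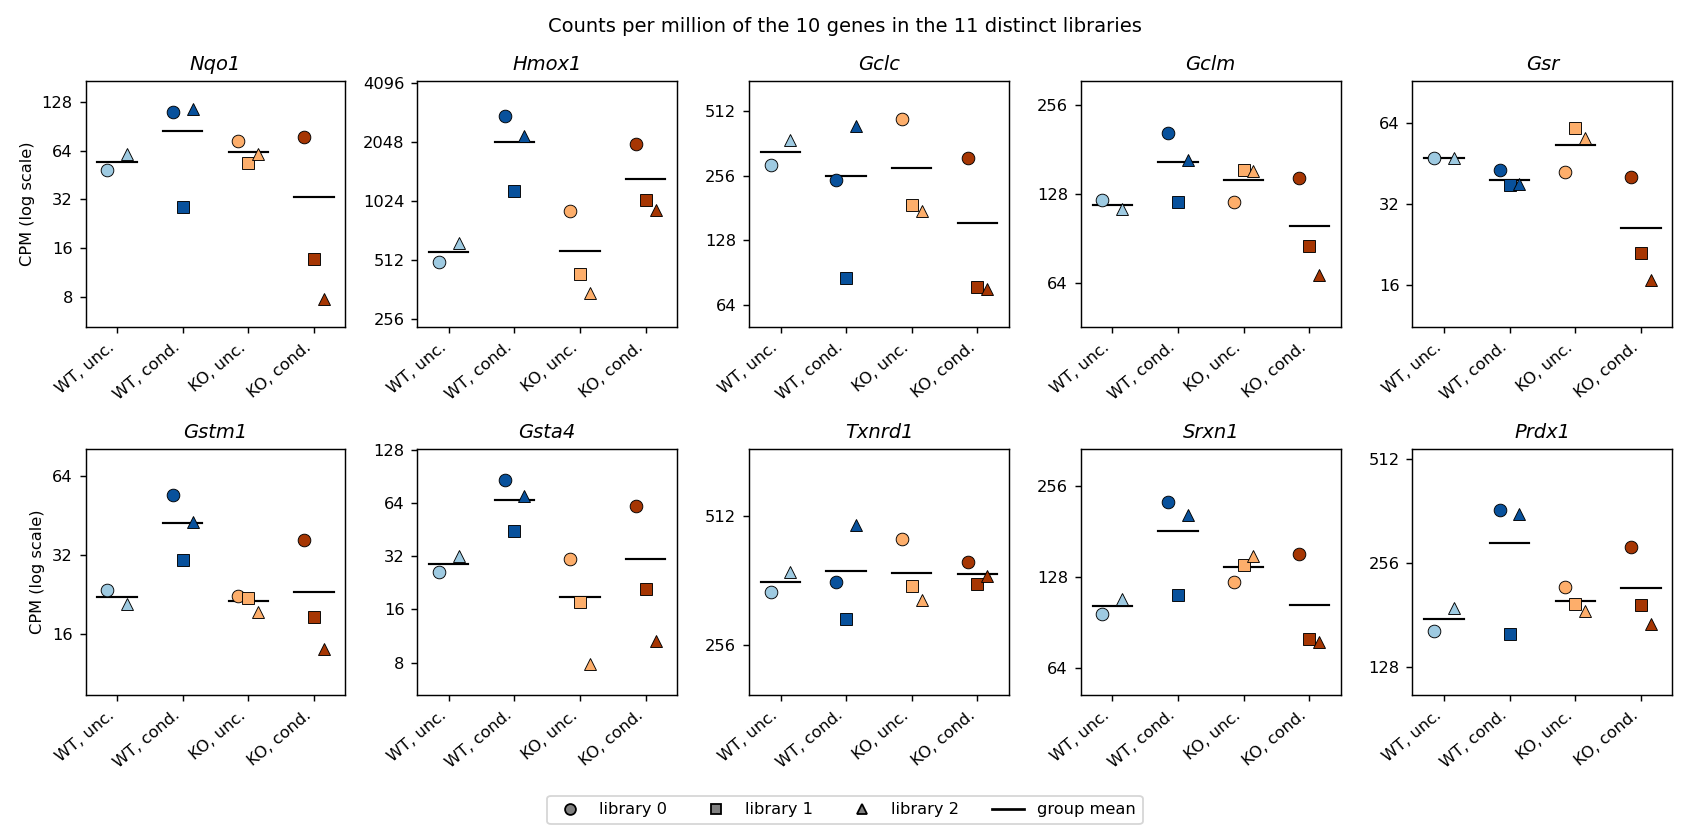
CPM (log axis, a separate scale for each gene) of the 10 genes in the 11 distinct libraries, in columns for WT and KO in unconditioned (unc.) and conditioned (cond.) medium. Symbols stand for the library number and bars for the group mean. Hmox1 is higher in every conditioned library than in any unconditioned library of its genotype, and Txnrd1 lies between 294 and 488 CPM throughout. Among the conditioned libraries, WT library 1 and KO libraries 1 and 2 lie low for most genes.

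The promoters of these genes are shown because NRF2 acts through a short element. RefSeq promoter windows of 300 bases (250 before to 50 after the start, GRCm38.p6) were at hand for 6 of the 10 genes, namely Gclm, Gstm1, Nqo1, Prdx1, Srxn1 and Txnrd1, in 9 windows. They were searched on both strands for the core of the antioxidant response element, TGACNNNGC, which reads GCNNNGTCA on the other strand. The core was found in 4 of the 9 windows, in 4 genes, and was present in 12.4% of all 32851 windows. In capitals is the match, read on the plus strand of the chromosome, and all 4 matches have the element on the minus strand.
Gclm (chr3:122245398-122245456): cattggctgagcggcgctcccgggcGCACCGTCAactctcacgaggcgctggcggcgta
Prdx1 (chr4:116685441-116685499): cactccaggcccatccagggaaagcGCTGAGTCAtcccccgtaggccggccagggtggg
Txnrd1 (chr10:82859089-82859147): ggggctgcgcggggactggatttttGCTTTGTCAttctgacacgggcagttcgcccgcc
Srxn1 (chr2:152105542-152105570): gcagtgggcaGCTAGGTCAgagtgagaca

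Counted from the transcription start, the matches of Gclm and Prdx1 begin at -134 and -133 and lie outside the gene as annotated by GENCODE. The Prdx1 match is nonetheless inside the wider span that the authors' gene model gives Prdx1, 116684965 to 116700000. The match of Txnrd1 begins at -92 from the second of its start sites and thus inside the longest gene model. The match of Srxn1 begins at base 29 of the transcript, in an exon annotated as untranslated. A match is a run of letters and was not tested as a binding site, and the windows searched reach only 250 bases upstream.

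Conditioned medium went with more Hmox1 RNA; of the 10 genes it alone rose by the test when both genotypes were averaged. Hmox1 (XLOC_021914, chromosome 8, 75093618 to 75100593, GRCm38) encodes the inducible haem oxygenase, which breaks haem down to biliverdin, iron and carbon monoxide. In WT it stood at 499 and 625 CPM in unconditioned libraries 0 and 2 and at 2793, 1147 and 2187 CPM in conditioned libraries 0, 1 and 2. In KO it stood at 914, 434 and 348 CPM in unconditioned libraries 0, 1 and 2 and at 1998, 1036 and 916 CPM in conditioned ones. The conditioned libraries were the higher ones in both genotypes without overlap, although unconditioned KO library 0, at 914 CPM, was close to the lowest conditioned library of that genotype, at 916 CPM. The group means were 562 ± 89.1 (SD, n = 2) and 2042 ± 833 (n = 3) CPM in WT, and 565 ± 305 and 1316 ± 593 (n = 3 each) in KO.

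Averaged over both genotypes, the log2 change of Hmox1 was 1.54 (SE 0.35, adjusted p = 0.0139, edgeR's quasi-likelihood test with Benjamini-Hochberg adjustment over all genes tested, as for every adjusted p here unless another tool is named). A gene counts as called where this p is under 0.05. Hmox1 was the only one of the 10 called in this average, in which 10.4% of all genes were called higher and 10.1% lower. The call was lost without WT unconditioned library 0 (1.46, adjusted p = 0.0760) or library 2 (1.62, adjusted p = 0.0591). Within a genotype the change was 1.86 in WT (SE 0.53, adjusted p = 0.113) and 1.22 in KO (SE 0.45, adjusted p = 0.0826), neither of them called. With the library number as a replicate block within each genotype, which rests on a check of the numbers in KO alone, both were called, at 2.15 (adjusted p = 0.0363) and 1.26 (adjusted p = 0.0181), in a fit that called 0.515% and 7.54% of all genes higher. In WT this block compares only libraries 0 and 2 across the media, with the average of libraries 0 and 1 standing for unconditioned library 0 and no partner for conditioned library 1. In the same-numbered KO libraries, conditioned minus unconditioned log2 CPM of Hmox1 was 1.13, 1.25 and 1.39, the narrowest spread relative to its size among the 10 genes.

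Macrophages are rich in haem oxygenase, so their markers are given beside Hmox1. The macrophage list (14 entries of the table, all detected) summed to 66.0 to 99.1 CPM in WT unconditioned and 114 to 150 CPM in WT conditioned libraries, and to 55.5 to 85.1 CPM in KO unconditioned libraries. In conditioned KO libraries 0, 1 and 2 it summed to 132, 92.0 and 52.1 CPM. Lyz2 was the largest part of these sums, at 43.1 to 53.3 CPM in WT unconditioned and 81.6 to 96.3 CPM in WT conditioned libraries. The other markers did not all move alike. Emr1 was at 1.38 to 2.59 CPM in WT unconditioned and 3.84 to 5.02 CPM in WT conditioned libraries. Csf1r was at 2.63 to 3.92 and 1.96 to 3.38 CPM in them, and C1qb at 1.77 to 5.03 and 1.16 to 2.65 CPM. The osteoclast list, of which Dcstamp had no fragment in any library, summed to 152 to 206 CPM in unconditioned and 286 to 451 CPM in conditioned libraries, most of it Ctsk. Among its other markers, Acp5, Oscar, Ocstamp and Calcr had at most 39, 9, 5 and 3 fragments in a library. Atp6v0d2 had 11 to 23 fragments in unconditioned and 59 to 91 in conditioned libraries, and Mmp9 5 to 17 and 1 to 73. Nfatc1 overlapped between the media, at 536 to 875 and 557 to 948 fragments. The sum thus mainly followed Ctsk and does not show how many osteoclasts were present. Any part of macrophages or osteoclasts in the Hmox1 result was not tested. In bulk RNA, fewer cells of a type and less RNA per cell cannot be told apart.

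Nqo1 (XLOC_022644, chromosome 8, 107388225 to 107403205), which encodes a quinone reductase and is widely used as a readout of NRF2, did not move in 1 direction with the medium. It was at 48.4 and 60.8 CPM in WT unconditioned libraries 0 and 2 and at 112, 28.9 and 115 CPM in conditioned libraries 0, 1 and 2. The KO levels were 73.9, 54.1 and 60.9 CPM in unconditioned libraries and at 77.8, 13.6 and 7.76 CPM in conditioned libraries 0, 1 and 2. The unconditioned libraries thus stayed within 48.4 to 73.9 CPM, and the conditioned ones lay on both sides of that range. The medium effect was 0.64 in WT (SE 0.85, adjusted p = 0.810) and -0.93 in KO (SE 0.76, adjusted p = 0.395). Without conditioned KO library 0 the KO effect was -2.56 (adjusted p = 0.0068) and was called.

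**Figure D2:**
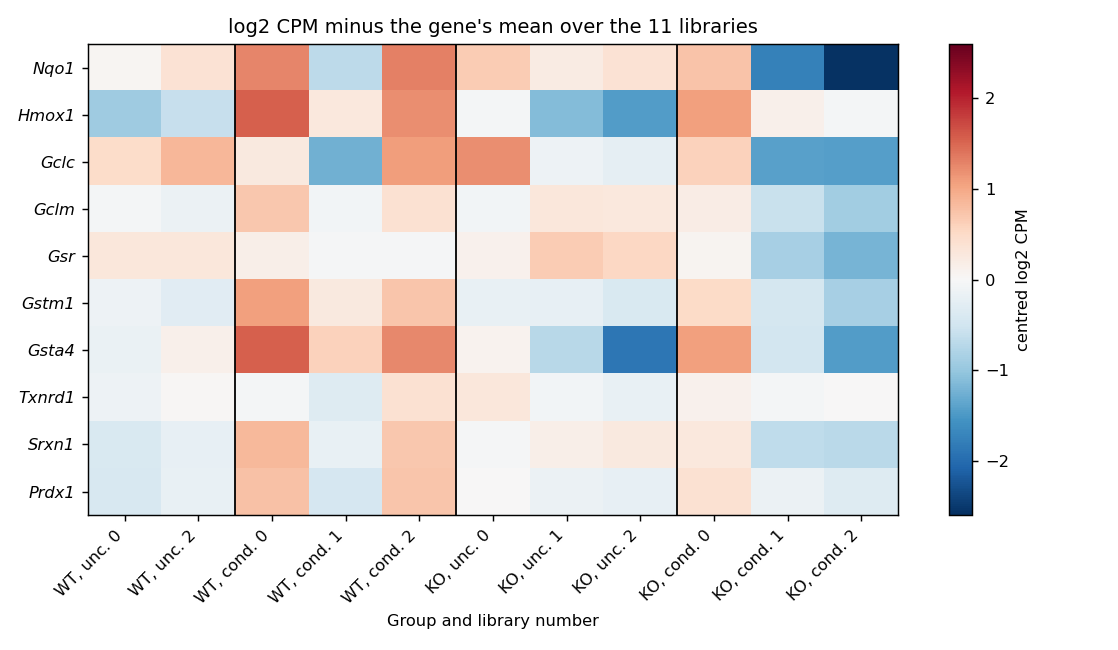
Log2 CPM of each gene minus its mean over the 11 libraries (colour, log2 units), with genes in rows and libraries in columns by group and library number (unc., unconditioned; cond., conditioned). Conditioned WT libraries 0 and 2 and KO library 0 are red for most genes, conditioned KO libraries 1 and 2 are blue for most, and Txnrd1 is pale throughout.

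Of the glutathione genes, Gsr fell in conditioned medium in KO, and no other was called in either genotype. Gsr (XLOC_021761, chromosome 8, 33653238 to 33698162) encodes glutathione reductase, which regenerates reduced glutathione from its oxidised form. It was at 41.9, 61.3 and 56.3 CPM in unconditioned KO libraries 0, 1 and 2 and at 40.4, 21.1 and 16.7 CPM in conditioned ones. All 3 conditioned KO libraries lay below all 3 unconditioned ones, but library 0 by only a small step and libraries 1 and 2 by a wide one. The log2 change was -1.03 (SE 0.28, adjusted p = 0.0351), and Gsr was the only one of the 10 called in KO, where 8.58% of all genes were called lower and 9.68% higher. In WT it was at 47.6 and 47.5 CPM in unconditioned libraries and at 42.9, 37.6 and 37.8 CPM in conditioned ones, lower without overlap, with a change of -0.27 (SE 0.31, adjusted p = 0.771). The KO call was lost without any of WT unconditioned library 0 or 2, WT conditioned library 0, KO unconditioned library 1 or 2 or KO conditioned library 1 or 2 (adjusted p = 0.0518 to 0.133), and also with the replicate block within genotype (-1.12, adjusted p = 0.0662), which called 8.73% of all genes lower in KO.

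Gclc and Gclm encode the catalytic and the modifier subunit of glutamate-cysteine ligase, the enzyme of the rate-limiting step of glutathione synthesis. The subunits did not share a profile. Gclc (XLOC_023294, chromosome 9, 77754535 to 77794489) was at 288 and 375 CPM in WT unconditioned libraries and at 244, 85.9 and 435 CPM in conditioned libraries 0, 1 and 2. KO libraries held 472, 187 and 175 CPM in unconditioned libraries 0, 1 and 2 and at 310, 77.3 and 75.8 CPM in conditioned ones. Library 0 was the highest KO library in both media. The effect of the medium on Gclc was -0.38 in WT (SE 0.76, adjusted p = 0.888) and -0.85 in KO (SE 0.69, adjusted p = 0.394). With the replicate block within genotype the KO effect was called, at -1.03 (adjusted p = 0.0241), as was the average over both genotypes, at -0.52 (adjusted p = 0.0468), where 10.2% of all genes were called lower and 8.88% higher. In the same-numbered KO libraries the differences for Gclc were -0.61, -1.28 and -1.20.

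Gclm (XLOC_014238, chromosome 3, 122245557 to 122269892), whose promoter match is given above, was at 122 and 114 CPM in WT unconditioned libraries and at 206, 120 and 166 CPM in conditioned ones. In KO, Gclm was at 120, 154 and 153 CPM in unconditioned libraries 0, 1 and 2 and at 145, 85.4 and 68.1 CPM in conditioned ones. Of the 3 conditioned libraries, 2 lay above the unconditioned ones in WT and 2 lay below them in KO. The log2 changes were 0.48 in WT (SE 0.31, adjusted p = 0.535) and -0.52 in KO (SE 0.27, adjusted p = 0.193).

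The transferases Gstm1 and Gsta4 were higher in every WT conditioned library than in the WT unconditioned ones, without passing the test. Both enzymes attach glutathione to electrophiles, and the product of Gsta4 acts on lipid aldehydes such as 4-hydroxynonenal. Gstm1 (XLOC_014761, chromosome 3, 108012250 to 108017973) was at 23.5 and 20.8 CPM in unconditioned and at 53.9, 30.6 and 42.6 CPM in conditioned WT libraries, a change of 0.94 (SE 0.36, adjusted p = 0.247). In KO it was at 22.4, 22.0 and 19.5 CPM in unconditioned libraries 0, 1 and 2 and at 36.3, 18.6 and 14.1 CPM in conditioned ones, a change of 0.11 (SE 0.32, adjusted p = 0.825). The unconditioned libraries of both genotypes lay within 19.5 to 23.5 CPM, a narrow band from which the conditioned libraries departed in both directions. Gstm1 has close copies in its gene cluster, and fragments that fit several copies could have been divided among them.

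Gsta4 (XLOC_023299, chromosome 9, 78191966 to 78209349) was at 26.0 and 31.95 CPM in WT unconditioned libraries and at 86.2, 44.6 and 70.0 CPM in conditioned ones. In KO it was at 31.0, 17.6 and 7.88 CPM in unconditioned libraries 0, 1 and 2 and at 61.4, 20.8 and 10.6 CPM in conditioned ones. In both media KO library 0 was the highest and KO library 2 the lowest, and each conditioned KO library was above the unconditioned one of the same number, by 0.98, 0.24 and 0.42 on the log2 scale. The medium effect was 1.21 in WT (SE 0.71, adjusted p = 0.482) and 0.71 in KO (SE 0.62, adjusted p = 0.426). With the replicate block within genotype the average over both genotypes was 0.997 (adjusted p = 0.0124) and was called.

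In the thioredoxin system Srxn1 and Prdx1 were higher in WT conditioned libraries 0 and 2, and Txnrd1 hardly varied. Srxn1 encodes sulfiredoxin, which repairs peroxiredoxins that peroxide has over-oxidised, and Prdx1 encodes a cytosolic peroxiredoxin, an enzyme that reduces peroxide. Srxn1 (XLOC_012445, chromosome 2, 152105524 to 152111376) was at 96.7 and 109 CPM in WT unconditioned and at 227, 112 and 206 CPM in WT conditioned libraries, a change of 0.82 (SE 0.34, adjusted p = 0.288) with no overlap. In KO, Srxn1 was at 124, 141 and 151 CPM in unconditioned libraries 0, 1 and 2 and at 153, 79.9 and 78.4 CPM in conditioned ones, a change of -0.42 (SE 0.30, adjusted p = 0.336). In WT conditioned library 1 Srxn1 was close to the unconditioned level, and in KO libraries 1 and 2 it was below it.

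Prdx1 (XLOC_015365, chromosome 4, 116684965 to 116700000) was at 162 and 190 CPM in WT unconditioned and at 365, 159 and 354 CPM in WT conditioned libraries 0, 1 and 2. In KO it was at 218, 194 and 186 CPM in unconditioned and at 285, 193 and 170 CPM in conditioned libraries 0, 1 and 2. Conditioned WT library 1 was the lowest of all WT libraries. The changes were 0.73 in WT (SE 0.34, adjusted p = 0.340) and 0.12 in KO (SE 0.29, adjusted p = 0.796), and the average over both genotypes was called only with the replicate block within genotype (0.56, adjusted p = 0.0208) or without WT conditioned library 1 (0.57, adjusted p = 0.0305), among the alternatives run.

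Txnrd1 (XLOC_001798, chromosome 10, 82833951 to 82897724) encodes the cytosolic thioredoxin reductase. It was at 340 and 379 CPM in WT unconditioned and at 359, 294 and 488 CPM in WT conditioned libraries, and at 451, 352 and 325 CPM in KO unconditioned and 399, 355 and 370 CPM in KO conditioned libraries. The ranges of all 4 groups overlapped. The medium effect was 0.08 in WT (SE 0.21, adjusted p = 0.920) and -0.004 in KO (SE 0.19, adjusted p = 0.989).

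Counted over the 10 genes, 0 were called in WT, where 1.78% of all genes were called, and 3 had an unadjusted p under 0.05, against 15.2% of all genes. The median of the 10 WT log2 changes was 0.69, against 0.01 over all genes tested, with 8 positive values. Libraries did not overlap in WT for 4 genes that were higher in conditioned medium (Hmox1, Gsta4, Gstm1 and Srxn1), where 21.8% of all genes met this criterion, and for 1 that was lower (Gsr), where 20.6% did. In KO the median was -0.21, against 0.02 over all genes, with 4 positive values. An unadjusted p under 0.05 was reached in KO by 2 of the 10, against 36.9% of all genes. There Hmox1 was higher and Gsr lower without overlap, in directions where 15.8% and 15.4% of all genes were.

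**Figure D3:**
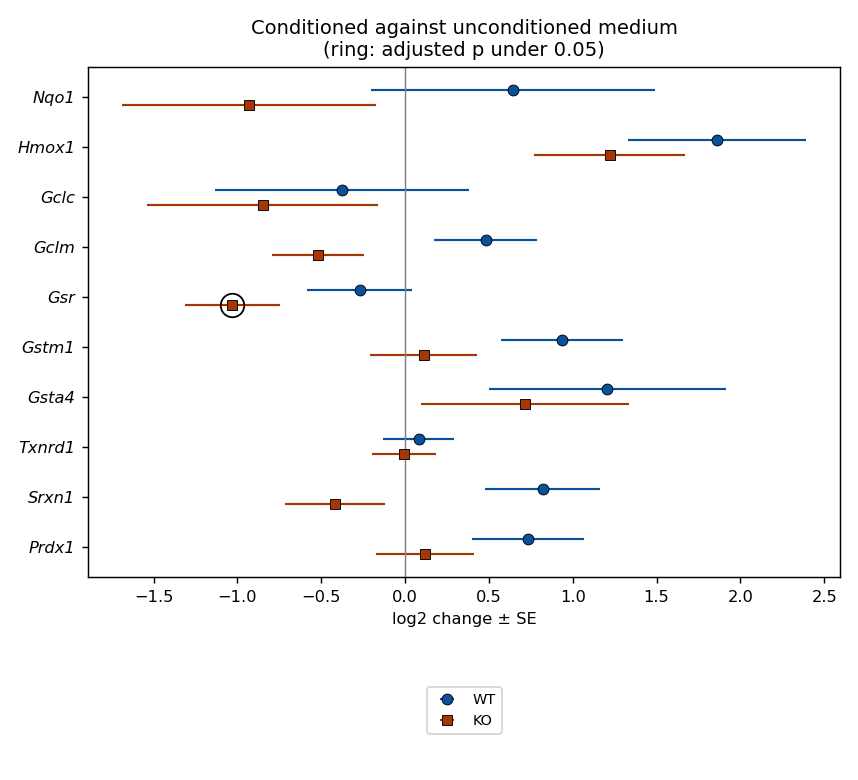
Log2 change between conditioned and unconditioned medium for each gene in WT (blue circles) and KO (red squares), with bars of 1 SE on each side. A ring marks an adjusted p under 0.05. Only Gsr in KO, at -1.03, has a ring, Hmox1 lies right of 0 in both genotypes, and each KO value lies left of its WT value.

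In unconditioned medium no difference between the genotypes was called for the 10 genes, and 0.00735% of all genes (1 gene) were called there. The log2 differences, KO minus WT, ran from -0.62 for Gsta4 (SE 0.68) to 0.43 for Srxn1 (SE 0.34), each with an adjusted p of 0.998. The median was 0.11, against 0.01 over all genes. Srxn1 was higher in all 3 KO libraries (124 to 151 CPM) than in both WT libraries (96.7 and 109 CPM), which 9.12% of all genes were, and for the other 9 genes the libraries overlapped. No gene of the 10 reached an unadjusted p under 0.05, against 294 of all genes.

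In conditioned medium all 10 genes had a lower fitted mean in KO than in WT, and none was called, as was no gene among the 13603. The differences were -1.37 for Nqo1 (SE 0.76, adjusted p = 0.386), -1.12 for Gsta4 (SE 0.61, adjusted p = 0.385), -0.88 for Gstm1 (SE 0.32, adjusted p = 0.357) and -0.81 for Srxn1 (SE 0.30, adjusted p = 0.357). Those of Gclc, Gclm, Hmox1, Gsr and Prdx1 ran from -0.72 to -0.44, and that of Txnrd1 was -0.02. The median of the 10 was -0.72, against -0.01 over all genes, of which 48.6% had a positive difference. An unadjusted p under 0.05 was reached by 3 of the 10 (Gclm, Gstm1 and Srxn1) and by 1897 of all genes, or 13.9%. DESeq2 called 2 genes, none of them among the 10, and gave no p for Nqo1. With limma 0 genes were called. The libraries of the groups overlapped for every one of the 10 genes, whereas 4.65% of all genes were higher and 4.22% lower in KO without overlap.

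For all 10 genes conditioned KO library 0 was the highest of the 3 conditioned KO libraries, and conditioned WT library 1 the lowest of the 3 conditioned WT libraries. In 9 of the 10 genes, all but Txnrd1, the 3 lowest of the 6 conditioned libraries were KO libraries 2 and 1 and WT library 1, and in 8 of the 10 they stood in exactly that order from the bottom. This order was noticed after the values were seen. Over all genes tested, 19.6% had the same 3 libraries lowest and 11.5% had them in this order. Along the first principal component the same 3 libraries were the highest of the conditioned ones, at 79.1, 64.8 and 26.6. The sum of the macrophage list, with Lyz2 its largest part, was lowest in KO libraries 2 and 1, at 52.1 and 92.0 CPM. The other 4 conditioned libraries, WT library 1 included, had 114 to 150 CPM. The sum of the keratinocyte list (9 of 9 detected) had the same order. It was 31.5, 33.3 and 58.1 CPM in KO libraries 2 and 1 and WT library 1, against 70.4 to 80.5 CPM in the others. Most of this sum was Perp, at 37.5 to 59.3 CPM in conditioned WT and 22.9 to 53.1 CPM in conditioned KO libraries. Not every marker of the list followed the order. Trp63 was at 0.644 to 1.49 CPM in conditioned WT and 1.56 to 3.56 CPM in conditioned KO libraries. The keratins Krt5 and Krt14 were highest of the conditioned libraries in WT library 1, at 5.27 and 4.12 CPM. In conditioned KO libraries they reached at most 0.304 and 0.162 CPM. The skeletal muscle markers (11 of 11 detected) set WT library 1 apart, at 192 CPM against 24.2 to 65.7 CPM in the other conditioned libraries. The part of these cells in the order was not tested.

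Conditioned KO library 0 was singled out from these same data. It was the highest conditioned KO library for all 10 genes, so its omission had to lower the KO mean of each. Without conditioned KO library 0, 6 of the 10 genes were called lower in KO than in WT in conditioned medium. These were Nqo1 (-2.99, SE 0.58, adjusted p = 0.0061), Gsta4 (-2.08, SE 0.55, adjusted p = 0.0205), Gstm1 (-1.36, SE 0.23, adjusted p = 0.0031), Srxn1 (-1.19, SE 0.26, adjusted p = 0.0098), Gclm (-1.09, SE 0.22, adjusted p = 0.0068) and Gsr (-1.05, SE 0.17, adjusted p = 0.0028). In the same fit 15.9% of all genes were called lower and 17.3% higher, so that leaving out 1 library took the calls over all genes from 0 to 4507. In that fit Gclc was at -1.72 (adjusted p = 0.0747), Hmox1 at -1.05 (adjusted p = 0.111), Prdx1 at -0.67 (adjusted p = 0.122) and Txnrd1 at -0.05 (adjusted p = 0.859). The medium effect in KO without conditioned KO library 0 called 5 of the 10 lower (Nqo1, Gclc, Gclm, Gsr and Srxn1), where 21.9% of all genes were. Leaving out conditioned WT library 1 instead called 0 of the 10 and 0 of all genes between the genotypes in conditioned medium, with a median of -0.99 over the 10. Leaving out conditioned KO library 1 or 2 also called 0 of all genes in this comparison.

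**Figure D4:**
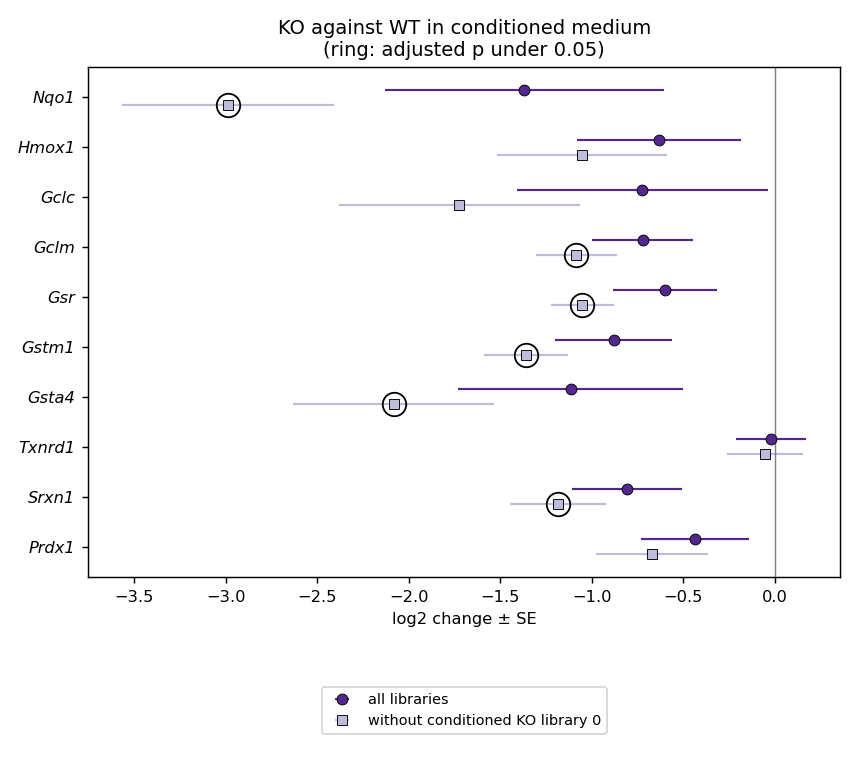
Log2 difference between KO and WT in conditioned medium for each gene, with all libraries (dark circles) and without conditioned KO library 0 (light squares), and with bars of 1 SE on each side. A ring marks an adjusted p under 0.05. All 10 dark circles lie left of 0 and none has a ring, while 6 of the light squares have one.

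The interaction, which is the KO medium effect minus the WT medium effect, asks whether the genotypes responded differently. It was negative for all 10 genes, with a median of -0.70 against -0.02 over all genes, and was called for none of them and for no gene of the 13603 (412 had an unadjusted p under 0.05, among them Srxn1 and Gclm). The largest values were -1.57 for Nqo1 (SE 1.14) and -1.24 for Srxn1 (SE 0.46), and the smallest adjusted p over all genes was 0.819. Without conditioned KO library 0 it was called for 5 of the 10 (Nqo1, Gclm, Gsr, Gstm1 and Srxn1), where 5.24% of all genes were called negative. The medium effects, the genotype differences and the interaction share libraries, so their values for a gene are not independent of each other.

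Most of the 10 genes have a single transcript in the authors' tables. Gclm and Prdx1 have 2 each and Txnrd1 has 4, in 3 groups that each share a start site. In Txnrd1, 95.5% to 99.1% of the fragments fell to the middle start site (transcripts NM_015762 and NM_001042513, from 82859179 and 82859207), the one with the promoter match printed above. The upstream start at 82833951 held 0.192% to 2.04% and the downstream start at 82860301 held 0.469% to 3.17%. These ranges cover the libraries of all 4 groups. The authors' deposited table of promoter use called no switch for Txnrd1, the only one of the 10 genes it tested, in any of 6 comparisons. The 2 transcripts of Gclm differ in length, and the shorter held 50.1% to 58.7% of its fragments in all groups.

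In the authors' deposited table of tests per transcript, made with Cuffdiff, more of the 10 genes were significant than in the fit above. The table counts WT unconditioned libraries 0 and 1, used here as 1 sample, as separate replicates. With all 12 libraries kept apart, the fit used here called 1 of the 10 between the media in WT. The reason for the difference between the tools was not tested. Of 14 transcripts of the 10 genes that could be tested, the authors' deposited table called 6 between the media in WT (of Gsta4, Gstm1, Hmox1, Nqo1, Prdx1 and Srxn1), where it called 5.66% of all tested transcripts. The WT log2 change of Hmox1 in the authors' deposited table was 1.91, with a q-value of 0.0016. Between the media in KO the authors' deposited table called 5 (of Gclc, Gsr, Gsta4, Hmox1 and Nqo1), against 10.9% of all transcripts. Between KO and WT in conditioned medium the authors' deposited table called 5 (of Gclc, Gsta4, Gstm1, Nqo1 and Srxn1), against 4.39%, and in unconditioned medium 0, against 1.33%. The authors' deposited table of start-site groups called the same genes between the media, where it called 8.76% of all groups in WT and 16.8% in KO. Between the genotypes the authors' deposited table of start-site groups called Gclm as well in conditioned medium and Gsta4 in unconditioned medium, against 7.2% and 2.21% of all groups. The log2 values in the authors' deposited table lay close to those fitted here, for example -1.38 for Nqo1 and -0.92 for Gstm1 between KO and WT in conditioned medium.

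The wider pathway was read from a list of 95 further genes, of which 89 were tested. Over both genotypes 9 of the 89 rose in conditioned medium (10.1%, against 10.4% of all genes) and 6 fell (6.74%, against 10.1%), and the median change was -0.04, against 0.02 over all genes. The genes that rose included Ftl1, the ferritin light chain, which stores the iron that haem oxygenase frees (1.28, SE 0.17, adjusted p = 0.0014). Ftl1 went from 938 ± 14.2 to 2429 ± 501 CPM in WT and from 920 ± 209 to 2104 ± 312 CPM in KO (SD, n = 2 for the first and 3 for the others), and was called in each genotype. Sqstm1, the autophagy receptor p62, which binds KEAP1, rose by 1.17 (SE 0.21, adjusted p = 0.0051), and Slc7a11, the cystine carrier that supplies cysteine for glutathione, by 0.81 (SE 0.18, adjusted p = 0.0128). Gss, the second enzyme of glutathione synthesis, rose by 0.70 (SE 0.22, adjusted p = 0.0483), and Mafg, a small MAF partner of NRF2, by 0.45 (SE 0.08, adjusted p = 0.0058).

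The 3 largest changes among the 6 genes of the list that fell over both genotypes were these. Sod3, the extracellular superoxide dismutase, changed by -1.56 (SE 0.29, adjusted p = 0.0058), Gpx3, the plasma glutathione peroxidase, by -1.31 (SE 0.40, adjusted p = 0.0451) and Prdx4, the peroxiredoxin of the endoplasmic reticulum, by -0.82 (SE 0.15, adjusted p = 0.0049). Of the regulators, Nfe2l2 itself was called in KO alone (0.57, SE 0.18, adjusted p = 0.0488), from 214 ± 24.8 to 317 ± 79.2 CPM (SD, n = 3 each). The KO libraries overlapped, at 193 to 241 CPM in unconditioned and 229 to 383 CPM in conditioned medium. By gene, results with a library left out are given for the 10 genes alone, not for this list. In WT the change of Nfe2l2 was 0.05 (SE 0.20, adjusted p = 0.949), and the difference between the genotypes was not called (0.52, SE 0.26, adjusted p = 0.819). Keap1 (-0.12 in each genotype, SE 0.10 and 0.09) and Bach1 (-0.22 in WT, SE 0.16, and -0.32 in KO, SE 0.15) were not called. Within WT 2 of the 89 rose (Slc7a11 and Ftl1) and 0 fell, or 2.25% called against 1.78% of all genes. Within KO 6 rose and 6 fell, 6.74% each, against 9.68% and 8.58% of all genes. No gene of the list was called between genotypes or in the interaction. In conditioned medium 36 of the 89 had the same 3 libraries lowest as described above, and 25 had them in that order, against 19.6% and 11.5% of all genes.

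Profiles over the 11 libraries were compared by the root-mean-square distance between centred log2 CPM values. Among the 10 genes Gclm and Srxn1 were the closest pair, at 0.17 on the log2 scale. The 3 genes with the widest range had no near neighbour within the set: Nqo1 was closest to Gclc (0.60), and Hmox1 and Gsta4 to each other (0.60). Of all tested genes, the closest to Nqo1 were D630003M21Rik (0.26), Ldha, a lactate dehydrogenase (0.39), and Ptges, a prostaglandin E synthase (0.40). The closest to Hmox1 were BC100451 (0.26), Galm (0.28) and Bace2 (0.32), and those to Gsta4 were 1700007K13Rik (0.33), Mgam (0.34) and Kif1a (0.36).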

How the data were processed

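RNA was sequenced from 12 samples in 4 groups of 3. The submitters' processing notes name TopHat2 2.0.9, Cufflinks and Cuffdiff 2.1.1, CASAVA 1.8.2 and the build GRCm38 (mm10). Per the labels' protocols, libraries were made with the TruSeq RNA v2 kit, which does not mark the strand, from RNA whose integrity number was above 7.5. The authors' raw fragments per gene, transcript and start site are, per the file headers and their values, estimated counts, of which 94.3% are whole numbers in the gene table. The deposited FPKM are fragments per length and depth, as scaled by the authors. The deposited test tables hold the authors' log2 fold changes, p-values and q-values, and other deposited columns give transcript length in bases.

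The 10 genes, the pathway list and the marker lists were chosen with earlier results of these data known. Genes without a symbol (1714, holding 2.69% to 3.10% of a library's fragments) were left out. WT unconditioned libraries 0 and 1 had equal counts for 91.8% of 17538 genes (chi-square 759 on 15474 degrees of freedom, against 94766 or more for other pairs) and were averaged. Rounded counts went into edgeR's robust quasi-likelihood fit (edgeR 4.0.16, R 4.3.3) after filterByExpr and TMM scaling, in 1 fit of the 4 groups, with 7 residual degrees of freedom and a common biological coefficient of variation of 0.238. CPM are counts scaled to these library sizes, and an SE is the size of the log2 change over the root of its F value. Named genes are all 10 and, of the pathway list, called genes (at most the 3 largest changes per sublist and comparison) plus Nfe2l2, Keap1 and Bach1. The nearest profiles are named for the 3 genes of widest range.

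No source ties the table's library numbers to those of the sample titles. Same-numbered KO libraries deviated together from their group means (r = 0.35, 0.24 and 0.32 over 13603 genes) and were therefore treated as pairs in an alternative fit. The pairing is not clean, as unconditioned library 2 with conditioned library 1 had r = 0.28 and 1 with 2 had r = 0.10, while library 0 was negative with both others. In WT no such check was made. Across genotypes same-numbered libraries did not all deviate together, as WT conditioned library 2 had r = -0.36 and -0.32 with KO libraries 2. On simulated data for the medium effect in WT (13441 genes), 30.3% of genes changed by 1 on the log2 scale and 74.7% of those changed by 2 were recovered. Alternatives were DESeq2 1.42.0, limma 3.58.1 on log2(FPKM + 1), other scalings, no filter, 12 libraries, each library left out, and replicate blocks.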

Additional observations from a re-analysis of the deposited data

How the results depend on the processing

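Of 1174 values of the 10 genes under alternatives, 1065 kept their direction and their side of the threshold, 51 became called, 10 lost their call and 48 changed sign. DESeq2 gave no p for Nqo1 in any comparison, and those values are not counted. Other scalings and no filter changed none of them. Counts of the 10 genes called stood at 0 in WT, 1 in KO, 1 over both genotypes, and 0 between genotypes in each medium and in the interaction. DESeq2 gave 1, 2 and 2 in WT, KO and over both genotypes, where it called 6.51%, 26.4% and 26.8% of all genes. The fit of 12 libraries gave 1 in WT and 2 over both genotypes, against 6.89% and 30.3% of all genes. Omitting both KO libraries numbered 0 gave 2, 5 and 2, against 11.7%, 50.4% and 48.6% of all genes. That omission also gave 7 between genotypes in conditioned medium and 5 in the interaction, against 42.6% and 19.2% of all genes. Leaving out 1 library at a time gave 0 to 1 in WT, 0 to 5 in KO, 0 to 2 over both genotypes, 0 to 6 between genotypes in conditioned medium and 0 to 5 in the interaction, with the highest values without conditioned KO library 0. The replicate block by library number over all groups called Hmox1 besides Gsr in KO (2 genes, Hmox1 at 1.24, adjusted p = 0.0445), against 13.4% of all genes. The replicate block within genotype, added after the data were seen, cannot compare genotypes. It called 1, 2 and 4 genes in WT, KO and their average, against 1.14%, 16.3% and 19.1% of all genes. The 2 in KO were Hmox1 and Gclc, and the KO call of Gsr was lost (-1.12, adjusted p = 0.0662). The blocks changed no other call. Signs changed mainly for values near 0. With limma, Gstm1 (-0.0053) and Txnrd1 (0.0098) in KO, Hmox1 between genotypes in unconditioned medium (-0.12) and Txnrd1 between them in conditioned medium (0.024) changed sign. Omitting both KO libraries numbered 0 did so for Gstm1 (-0.34), Txnrd1 (0.10) and Prdx1 (-0.060) in KO, Srxn1 over both genotypes (-0.032), Hmox1 (-0.52) and Txnrd1 (-0.084) between genotypes in unconditioned medium and the interaction of Txnrd1 (0.029). Blocks did so for Gclc (0.050) and Gstm1 (0.050) between genotypes in unconditioned medium, Txnrd1 in KO (0.0083) and Gclm over both genotypes (0.032). Leaving out 1 library gave -1.01 to 0.037 for Gclc and -0.14 to 0.24 for Txnrd1 in WT. In KO it gave -0.38 to 0.38 for Gstm1, -0.26 to 1.28 for Gsta4, -0.10 to 0.15 for Txnrd1 and -0.13 to 0.27 for Prdx1. Over both genotypes it gave -0.96 to 0.095 for Nqo1, -0.21 to 0.088 for Gclm and -0.075 to 0.12 for Txnrd1. Between genotypes it gave -0.52 to 0.26 for Hmox1, -0.14 to 0.032 for Gstm1 and -0.087 to 0.16 for Txnrd1 in unconditioned medium, and -0.17 to 0.21 for Txnrd1 in conditioned medium. The interaction ran from -1.47 to 0.15 for Gclc, -1.46 to 0.074 for Gsta4 and -0.24 to 0.14 for Txnrd1. Over all genes, 242 calls in WT became 886 with DESeq2, 923 with 12 libraries, 155 with the block within genotype and 0 to 916 with 1 library left out. In KO 2484 became 319 to 6094 with 1 library left out, and over both genotypes 2787 became 1215 to 5652. Omitting both KO libraries numbered 0 called 1589 in WT, 6822 in KO, 6590 over both genotypes, 659 and 5765 between genotypes and 2605 in the interaction. The causes were not tested. With 1 unconditioned WT library left out, the remaining one is assumed to vary like the other groups. Each of the 10 genes had 117 or more fragments in every library.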
